A study of Rattus norvegicus with 4 samples.

Results

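The Notch receptors Notch1, Notch2 and Notch3, their ligands Jag1, Jag2, Dll1 and Dll4, and the target genes Hes1, Hey1 and Heyl were examined in the m6A-seq data of cardiac fibroblasts (CFs). The 10 genes were selected by symbol and found through their NCBI gene IDs. Of these, 6 carried a listed m6A peak, out of 8729 genes with a peak in either group. The CFs were primary cells from newborn Sprague-Dawley rats, at most 3 days old, and were transfected for 48 h. The Vector group, labelled WT, received the empty plasmid, and the FTO group, labelled FTO overexpression, received the same kind of plasmid with rat FTO cDNA. The labels give no other treatment, and how many animals were pooled is not given in the sources used here. Each group had 1 m6A-IP library and 1 input library, and a single peak list was deposited for each group, with the length of every peak in bp. No difference between the groups therefore has a replicate check, no p-values are given, and the sequencing depth behind the lists is unknown.

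Notch signalling passes between touching cells. A Jagged or Delta ligand on one cell binds a Notch receptor on its neighbour, proteases cut the receptor, and its intracellular part enters the nucleus, where it joins the DNA-binding protein Rbpj and switches on Hes and Hey repressor genes. In the heart the pathway is known for its part in valve, vessel and epicardial development and in the behaviour of fibroblasts after injury. m6A is a methyl mark on adenosine in mRNA, FTO is an enzyme that removes it, and a peak is a stretch of RNA where fragments pulled down with an m6A antibody exceeded the input.

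The lists held 21249 Vector peaks and 17796 FTO peaks, so the FTO list was shorter as a whole. The transfected gene, Fto, had 3 Vector peaks and 9 FTO peaks, in which plasmid and endogenous transcripts were not separated. Among markers of the labelled cell type, 8 of 14 fibroblast genes had a listed peak, with 16 Vector peaks and 13 FTO peaks in all. Pdgfra, a growth factor receptor of fibroblasts, had 7 Vector peaks and 6 FTO peaks, whereas the collagen genes Col1a1, Col1a2 and Col3a1 had none. Genes of other heart cells were listed as well, namely 7 of 10 cardiomyocyte markers with 24 Vector peaks and 26 FTO peaks, 5 of 6 mural cell markers with 24 and 25, and 5 of 6 macrophage markers with 17 and 9. Endothelial markers were listed for 3 of 10 genes, with 8 Vector peaks and 6 FTO peaks, and the defining genes Pecam1, Cdh5 and Kdr had none. The 3 listed were Flt1, with 7 Vector peaks and 4 FTO peaks, Tek, with 0 and 2, and Erg, with 1 and 0. The part of these cells in the peaks of the Notch genes was not tested. In such bulk samples, fewer cells of a type and less of a transcript per cell cannot be told apart.

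Together the 10 Notch genes had 14 listed Vector peaks and 12 listed FTO peaks. Notch1, Notch2, Jag1 and Hes1 had as many peaks in both groups, Notch3 and Heyl had fewer in the FTO group, and none of the 10 had more. Over all 8729 genes, FTO peaks were less numerous in 41.4%, equal in number in 37.4% and more numerous in 21.2%. The 2 genes with fewer FTO peaks among the 6 that were listed are thus no larger a share than the background. The FTO numbers were also scaled up 1.19 times, as the list sizes differ, and a difference of at least 1 peak was required. Scaled in this way, a listed gain of 1 peak always counted as more. A listed loss of 1 peak, as in Notch3, counted as fewer only where no FTO peak was left. Heyl was then the only gene of the 10 with fewer peaks, and none had more. By this rule, 26.0% of all genes had fewer and 23.2% had more. By summed length in place of number, counting any difference, 4 genes were lower in the FTO group and 2 were higher, beside 47.2% and 31.8% of all genes.

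**Figure D1:**
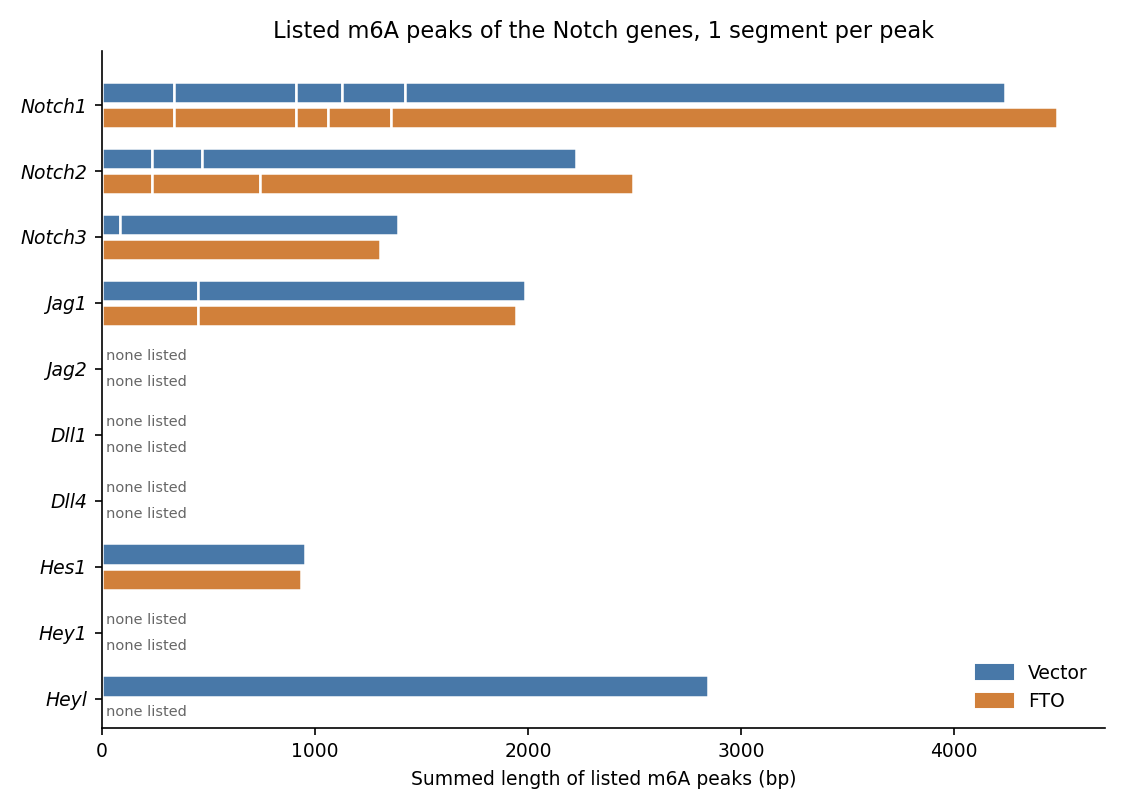
Listed m6A peaks of the 10 Notch genes in the Vector group (blue) and the FTO group (orange). Each segment is 1 peak, its width is the peak length in bp, and the segments of Notch1, Notch2, Notch3 and Jag1 are ordered from the 5′ to the 3′ end of the gene. Segments are joined end to end and do not show distances along the transcript. Heyl has a single Vector segment of 2847 bp and no FTO segment, and Jag2, Dll1, Dll4 and Hey1 have none.

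Among the receptors, Notch1 (NCBI gene 25496), which is widely expressed and acts in vessels, blood and heart development, carried the most peaks. In the order of their peak numbers, its Vector peaks were 2817, 296, 217, 572 and 339 bp long. Its FTO peaks were 3127, 296, 149, 572 and 339 bp long. The peaks of 296, 572 and 339 bp were thus listed with unchanged length, while the longest was 310 bp longer and the 217 bp peak 68 bp shorter in the FTO group. Summed over the gene, the Vector peaks covered 4241 bp and the FTO peaks 4483 bp, a ratio of 1.06. With only peaks of at least 200 bp counted, the FTO peak of 149 bp dropped out and Notch1 had 1 FTO peak fewer than Vector peaks. Such a peak number was not rare, since 15.8% of the genes with Vector peaks and 13.1% of those with FTO peaks had at least 5. Its longest peak was at the upper end of the lengths, with 1.80% of Vector peaks at least as long as 2817 bp and 1.53% of FTO peaks at least as long as 3127 bp.

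Notch2 (NCBI gene 29492), a receptor known for roles in liver, kidney and vascular smooth muscle, had 3 peaks in each group. The Vector peaks were 235, 237 and 1752 bp long, and the FTO peaks were 235, 506 and 1752 bp long. The outer peaks kept their lengths, and the middle one was 269 bp longer with FTO, the largest relative difference among the peaks compared by order. The summed length was 2224 bp with Vector and 2493 bp with FTO, a ratio of 1.12. The middle peaks were matched by their order alone, and without positions it was not determined whether they cover the same site.

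Notch3 (NCBI gene 56761), the receptor best known from vascular smooth muscle and pericytes, had Vector peaks of 1307 and 85 bp and a single FTO peak of 1307 bp. The long peak thus had an unchanged length, and the peak of 85 bp was found for Vector alone. Notch3 therefore had as many peaks in both groups once peaks under 100 bp were left out. The summed length went from 1392 bp to 1307 bp, a ratio of 0.94. Of the receptors, Notch4, which is known from endothelium and was not among the 10 genes, had no Vector peak and 1 FTO peak of 296 bp.

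The ligands were listed for 1 of 4 genes. Jag1 (NCBI gene 29146), a transmembrane ligand needed for outflow tract and arterial development, had Vector peaks of 1534 and 452 bp and FTO peaks of 1493 and 452 bp. The shorter peak was unchanged in length and the longer one was 41 bp shorter with FTO, and the summed length was 1986 bp and 1945 bp, a ratio of 0.98. No peak was listed for Jag2 (NCBI gene 29147), Dll1 (NCBI gene 84010) or Dll4 (NCBI gene 311332), the last of which is known as the ligand of endothelial tip cells. RefSeq places a second gene, Dll4l1, beside Dll4, and it had no listed peak in either group. A missing peak does not tell a transcript without the mark from one that was scarce in these cells.

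The target genes differed from each other. Hes1 (NCBI gene 29577), a repressor that is a direct target of Notch in many tissues, had 1 Vector peak of 954 bp and 1 FTO peak of 937 bp, 17 bp shorter. Heyl (NCBI gene 313575), a related repressor found in smooth muscle and other mesenchymal cells, had 1 Vector peak of 2847 bp and no FTO peak. Hey1 (NCBI gene 155437), which acts in the development of vessels and the endocardial cushions, had no listed peak in either group. Heyl was thus the only gene of the 10 listed in a single group. Over all genes, 16.4% were listed in the Vector group alone and 9.57% in the FTO group alone.

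The Heyl peak was long for a gene listed in the Vector group alone. The median of the longest peak over the 1432 such genes was 330.5 bp, and 18 of them, Heyl included, had a peak of at least 2847 bp. In the whole Vector list, 1.76% of the peaks were at least as long. Of all 3341 genes with a single Vector peak, 31.5% had no FTO peak, and of the 323 genes whose single Vector peak had at least 2000 bp, 12.4% had none. The limit of 2000 bp was set after the length of the Heyl peak had been seen. By summed length, Heyl alone of the 10 genes was at least 1.5 times lower in the FTO group and 0 were as much higher, beside 27.3% and 16.2% of all genes, where genes without a peak in one group are included.

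Peaks of the same order were compared for the 4 genes with as many peaks in both groups. Of the 11 pairs, 6 had the same length, 2 were longer with FTO and 3 were shorter. In the 3160 genes of this kind, whose peaks fell on the same transcripts in both lists, 69.7% of 6009 pairs had the same length, 17.0% were longer and 13.3% were shorter. None of the 5 Notch genes listed in both groups had identical peak lengths throughout, beside 28.4% of the 6462 genes listed in both groups. The latter were not matched for peaks per gene, and Notch3 could not be identical because its peak numbers differed. The longest peak kept its length in Notch2 and Notch3, was longer in Notch1 and was shorter in Jag1 and Hes1. Among all genes in both lists, the longest peak was the same in 60.6%, longer in 20.2% and shorter in 19.2%.

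**Figure D2:**
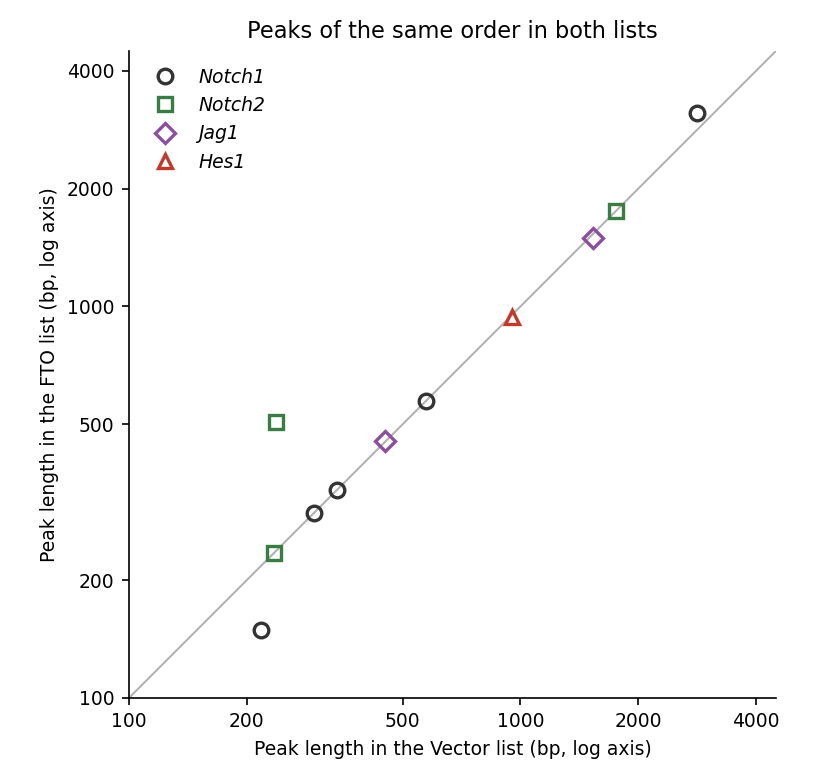
Length of each listed peak in the FTO group against the peak of the same order in the Vector group, in bp on log axes, for the 4 Notch genes with as many peaks in both groups. The grey line marks equal length. The points of 6 pairs lie on the line, and the farthest from it are the Notch2 pair of 237 and 506 bp and the Notch1 pair of 217 and 149 bp.

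When peaks were paired 1 to 1 by gene and equal length, 7 peaks of the Notch genes were common to both groups. Of the 14 Vector peaks, 7 had no partner, a share of 50.0% (95% Wilson interval 26.8% to 73.2%), beside 42.7% over all genes. Of the 12 FTO peaks, 5 had no partner, a share of 41.7% (19.3% to 68.0%), beside 31.6% over all genes. Both intervals include the share over all genes, and they cover counting error only. If lengths within 10% were accepted, 4 Vector peaks and 2 FTO peaks were left, and if length was ignored within a gene, 1 Vector peak each of Heyl and Notch3 was left.

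The peaks are numbered, and the numbers follow the genome. From one listed gene to the next, the chromosome was the same in 98.3% of steps in both lists, and within a chromosome the genes stood in the RefSeq order of GRCr8 in 94.95% of Vector steps and 94.96% of FTO steps. The first to last peak of a gene could therefore be read from the 5′ to the 3′ end with the strand given by RefSeq. The deposited lists are from build rn6, and a local inversion between the builds would turn this reading. In all 4 Notch genes with at least 2 Vector peaks, the longest peak was the 3′-most. These were the peaks of 2817 bp in Notch1, 1752 bp in Notch2, 1307 bp in Notch3 and 1534 bp in Jag1. The same held in the FTO group for Notch1, Notch2 and Jag1, the 3 genes with at least 2 FTO peaks. Over all genes with at least 2 peaks on 1 transcript, the longest was the 3′-most in 55.2% of 2947 genes for Vector and in 57.5% of 2510 genes for FTO, and the 5′-most in 29.6% and 28.0%. A long peak was thus listed in both groups for each of these 4 genes, but without positions it was not determined whether the sites were the same. For Notch3, with a single FTO peak, its place along the gene could not be read from order. Differences were seen both in these peaks and upstream. The 3′-most peak had 2817 and 3127 bp in Notch1 and 1534 and 1493 bp in Jag1, with Vector and FTO. Upstream, the Vector peak of 85 bp in Notch3 had no FTO partner of equal length. By order, an upstream peak was longer in Notch2 and another was shorter in Notch1 with FTO.

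Many numbers are skipped in the lists, the highest number being 59557 for Vector and 52060 for FTO. What a skipped number stands for is not given in the sources used here. For each Notch gene, the numbers between the nearest listed protein-coding genes on either side were counted. Around Dll4, between Vps18 and Chac1, there was no number in either list, so no skipped number can lie there if these genes keep their order in rn6. Around Jag2, the Vector list skipped 3 numbers between Cdca4 and Brf1. For FTO, the flanking genes were Gpr132 and Brf1, which had consecutive numbers, so the counts are not over the same stretch. Around Dll1, 3 Vector numbers were skipped between Phf10 and Fam120b, and 5 FTO numbers between C1h6orf120 and Fam120b. Around Hey1 there were 16 and 42, over a wider stretch in the FTO list, from Tpd52 to Ythdf3. For Heyl, the FTO list skipped all 3 numbers between Cap1 and Pabpc4, while the Vector list skipped 12 of 13 between Mfsd2a and Pabpc4. Whether a skipped FTO number lies on Heyl was not determined. Within Notch1, from its lowest to its highest number, 3 Vector numbers and 4 FTO numbers were skipped, and within Notch2 9 and 5 were skipped, so the listed peaks may not be all peaks that were numbered on these genes.

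**Figure D3:**
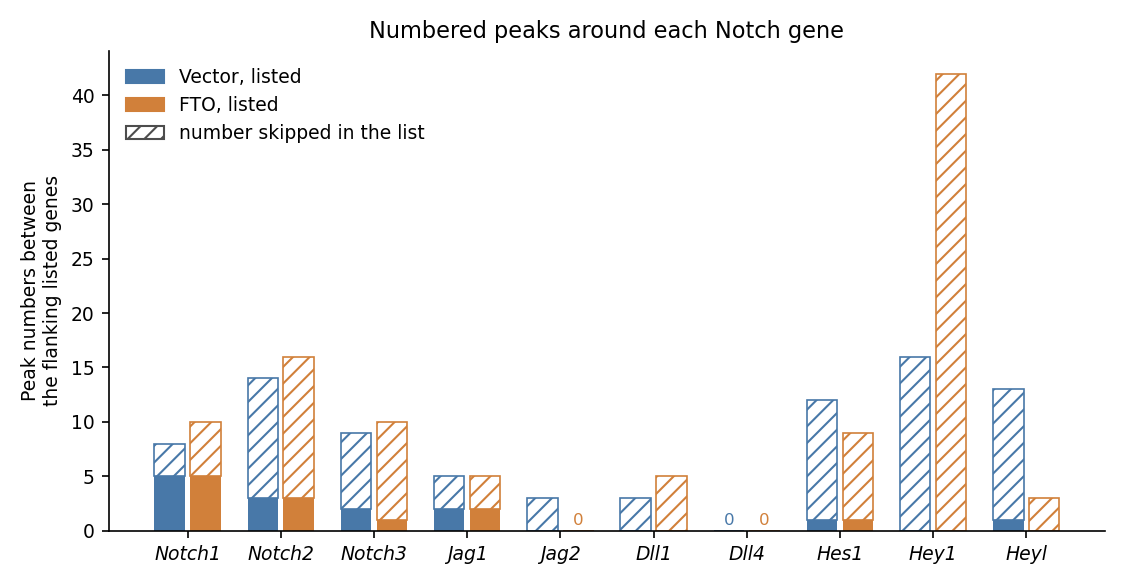
Peak numbers lying between the nearest listed protein-coding genes on either side of each Notch gene, in the Vector list (blue) and the FTO list (orange). Filled parts are listed peaks, all of which belong to the Notch gene itself, and hatched parts are numbers skipped in the list. The flanking genes differ between the lists for some genes, as for Hey1 with 16 and 42 numbers, and Dll4 has 0 in both.

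By number and summed length of peaks, the genes most like Notch1 were Dnmbp, Nrp2 and Nedd9. They were selected among the 91 other genes with 5 peaks in each group by the smallest summed absolute log2 ratio of the 2 summed lengths to those of Notch1, over the 2 lists, which was 0.080 for Dnmbp, 0.094 for Nrp2 and 0.13 for Nedd9. Their peaks covered 4253, 4504 and 4166 bp, with the same total and 5 common peaks in both groups for each. Notch1 had 3 common peaks. The summed lengths of Notch1 were close in the 2 groups, so a rule that uses both favours genes with equal totals. No contrast with Notch1 is therefore drawn, and common peaks over the 91 genes were not counted.

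Of 66 other genes of the Notch pathway, 42 had a listed peak. With FTO, 18 of them had fewer peaks, 15 had more and 9 had the same number, and the totals were 159 Vector peaks and 153 FTO peaks. Over all genes, 41.4% had fewer, 21.2% had more and 37.4% had the same number. The counts by role below stand beside the same shares. The median difference was 0 for the 42 listed pathway genes, for the 6 listed Notch genes and for all genes. After scaling by the list sizes, 9 genes were lower and 17 were higher by at least 1 peak, beside 26.0% and 23.2% of all genes, which were not matched for peaks per gene. By summed length, counting any difference, 16 were lower and 22 were higher, beside 47.2% and 31.8% of all genes. More of the pathway genes were thus lower than higher by number as listed, and more were higher than lower by either of these measures. For scaling, the rule itself favours this turn, as it keeps every listed gain and drops losses of 1 peak where an FTO peak is left. Spen and Cir1, with 6 and 8 peaks in both groups, also counted as higher by it. Unpaired by length were 32.7% of the Vector peaks (95% Wilson interval 25.9% to 40.3%) and 30.1% of the FTO peaks (23.4% to 37.7%), beside 42.7% and 31.6% over all genes.

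The proteases that release Notch were listed for 5 of 9 genes, with 12 Vector peaks and 15 FTO peaks. Adam17, which can cut the receptor outside the cell, had 3 Vector peaks and 5 FTO peaks. The sugar transferases that modify the receptor were listed for 3 of 5 genes, with 6 Vector peaks and 3 FTO peaks. In the nuclear complex, Rbpj had 1 peak in each group, of 142 bp with Vector and 773 bp with FTO. Crebbp, an acetyltransferase recruited by the complex, had 11 Vector peaks and 10 FTO peaks, the longest of 2288 bp and 4905 bp. Of the 9 nuclear activators, 3 had fewer peaks with FTO, 2 had more, 2 were equal and 2 were not listed.

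The corepressors that keep Notch targets silent carried the most peaks, 77 in each group over 11 listed genes. Ncor1, which recruits histone deacetylases, had 23 Vector peaks and 19 FTO peaks. Spen and Cir1, which link Rbpj to corepressors, had as many peaks in both groups, with 6 and 8. Tle3, a Groucho-type corepressor that works with Hes proteins, had 6 Vector peaks and 7 FTO peaks. Of the 12 corepressors, 4 had fewer peaks with FTO, 4 had more, 3 were equal and Tle2 was not listed.

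Of the 19 genes of ubiquitination, endocytosis and adaptors, 13 were listed, with fewer FTO peaks for 7, as many for 3 and more for 3. Dtx2, a Deltex ubiquitin ligase, had 3 Vector peaks and 7 FTO peaks. Aak1, a kinase of endocytosis, had 7 and 5, Numbl, an inhibitor of Notch, had 5 and 4, and Fbxw7, which marks the intracellular part of Notch for breakdown, had 4 in each group. Among the other Hes and Hey genes, Hey2 had 1 Vector peak of 1862 bp and no FTO peak, while Hes6 had no Vector peak and 1 FTO peak of 977 bp. These 2 were named after their values had been seen. Of the Hey genes, Hey2 and Heyl were thus listed in the Vector group alone and Hey1 in neither group. Over all genes, 16.4% were listed in the Vector group alone. Hey2 and Heyl each had a single Vector peak, and 31.5% of all genes with a single Vector peak had no FTO peak. No pattern of the Hey genes is drawn from these values.

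**Figure D4:**
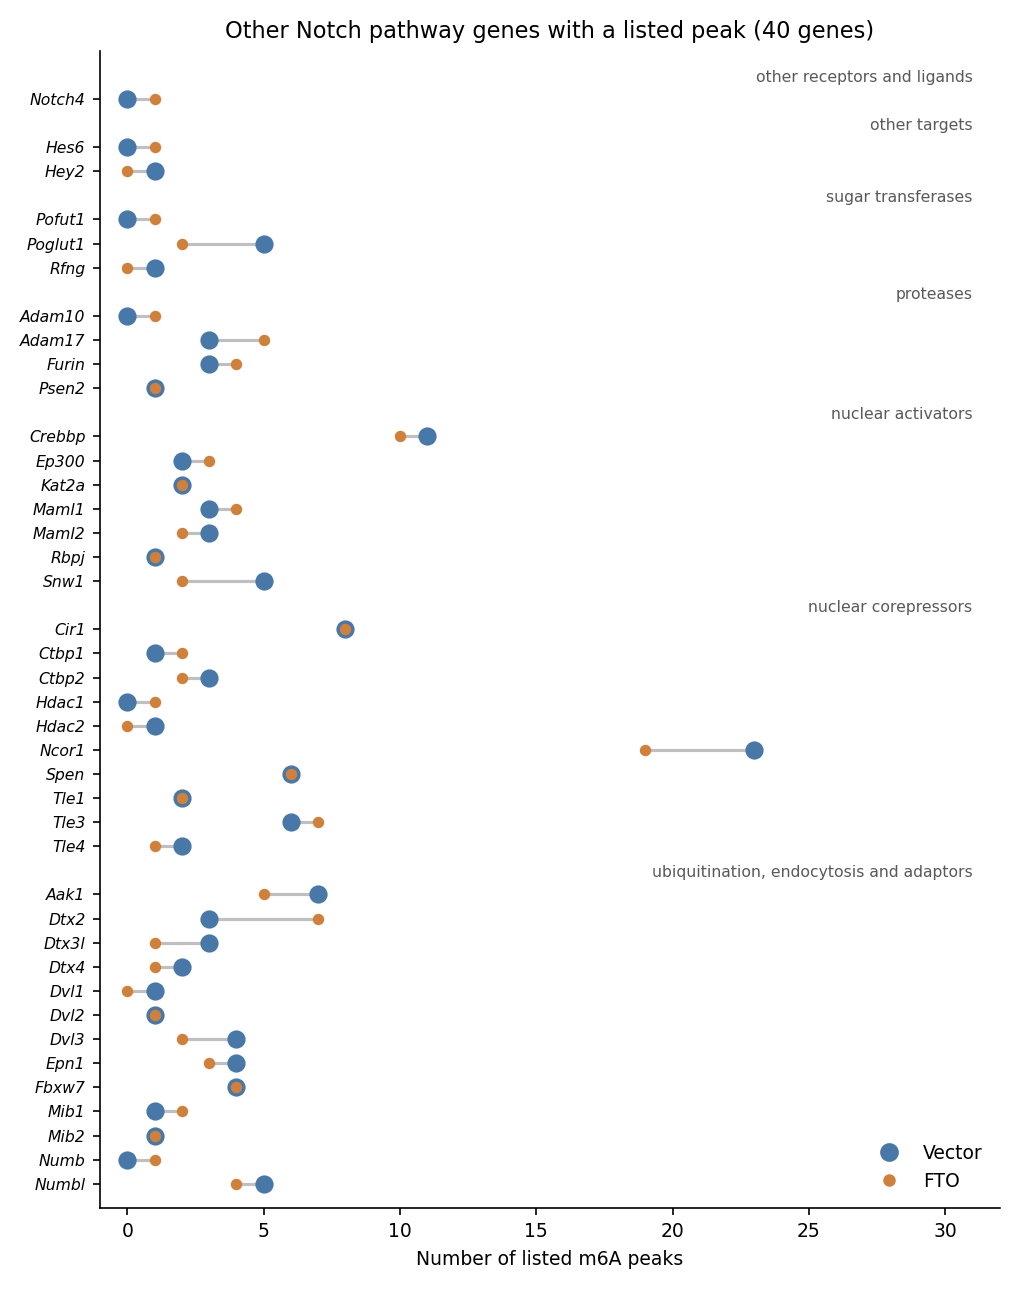
Number of listed m6A peaks in the Vector group (large blue points) and the FTO group (small orange points) for 40 of the other Notch pathway genes with a peak, grouped by role. Grey lines join the values of a gene, and a small point inside a large one means equal numbers. The lines run in both directions, with 17 of the plotted genes lower and 14 higher in the FTO group.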

How the data were processed

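m6A-IP and input RNA of neonatal rat CFs was sequenced in 4 libraries, 1 of each kind per group. According to the submitters' processing notes, cutadapt 1.9.3, HISAT2 2.0.4 and build rn6 were used; peak names carry the prefix MACS, and the settings and threshold of peak calling are not given in the sources used here. The deposited lists hold the peak length in bp, not normalized, with a transcript and, except for 248 Vector peaks and 213 FTO peaks, an NCBI gene ID. Groups were read from the labels.

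Symbols, gene order and strand came from RefSeq tables of GRCr8, in which all 10 genes were found; symbols were found for 7489 of 7723 Vector gene IDs and 6920 of 7145 FTO gene IDs. Peaks were counted per gene ID, or per transcript where no gene ID was given. A gene was called fewer or more when its peak numbers differed, and summed lengths were compared both by any difference and from 1.5-fold. Peaks were paired 1 to 1 by gene and equal length. Counting and pairing were tested on simulated lists. The 10 genes, the pathway and marker lists and the rules were chosen with earlier results of these data known. All 10 genes are named, together with the 12 other pathway genes with the most peaks, Rbpj, Notch4 and Fto, except 2 genes that are counted but not reported here by name, and the 3 genes most like the Notch gene with the most peaks. The reading of peak order, the strand and the skipped numbers were added after the lists had been seen. No protein sequence, genome or peak position was used. Python 3.11.15, numpy 2.4.6, pandas 2.3.3, scipy 1.17.1 and matplotlib 3.10.9 were used.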

Additional observations from a re-analysis of the deposited data

How the results depend on the processing

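Of 54 values under the alternatives, 41 held (counts no more than 1.5 times apart, shares inside the 95% interval, differences in peak number equal) and 13 moved. Those that held include the values of Jag2, Dll1, Dll4 and Hey1, which had no peak in either list and could not move. Of the 34 values that are counts or shares over several genes, 24 held and 10 moved. The count of 2 Notch genes with fewer FTO peaks held at 200 bp, but with Notch1 in place of Notch3. No Notch gene turned its direction in peak number under a minimum length, whereas the balance of the other pathway genes turned under other alternatives. From 18 fewer and 15 more, it went to 16 and 22 by summed length, and 14 and 15 with only the transcript with the most peaks. After scaling by the list sizes it was 9 and 17, a turn that the scaling rule favours. That rule keeps every listed gain and drops losses of 1 peak where an FTO peak is left. The number of the 10 Notch genes with fewer FTO peaks was 1 with peaks of at least 100 bp and 1 after scaling by the list sizes, and 4 by summed length, by which 2 genes were higher. Of the other pathway genes, 11 had fewer and 6 had more FTO peaks with peaks of at least 200 bp. Unpaired Vector peaks came to 14.3% when length was ignored within a gene, and the share of unpaired FTO peaks was 0% by this rule and 16.7% with lengths within 10%. Fewer peaks enter under a minimum length, and the wider pairing rules accept more partners by construction. No paired analysis was possible because a single list was made from the 1 m6A-IP and 1 input library of a group. No replicate could be left out for the same reason. Depth is unknown, which limits all comparisons of peak numbers.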

Other observations

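The single FTO peak of Notch4 had 296 bp, the length of a peak that Notch1 had in both groups. This was noticed after the values had been seen, and how often unrelated genes share a length was not measured.

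Poglut1, which adds glucose to the extracellular part of Notch, had 5 Vector peaks of 100 to 202 bp and 2 FTO peaks, one of which was 1795 bp long, and none of its peaks had a partner of equal length. Snw1, a splicing factor that also binds the Notch complex, had 5 Vector peaks and 2 FTO peaks, with summed lengths of 580 bp and 260 bp. Poglut1 and Snw1 were named after their values had been seen.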
